A study of Mus musculus with 3 samples.

Results

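HBO1 peaks were examined at 10 Polycomb genes, Kdm2b, Ezh2, Eed, Suz12, Jarid2, Rnf2, Ring1, Pcgf1, Pcgf6 and Rybp, out of 21938 protein-coding genes. The genes were chosen by name, with earlier results of these data known, and their transcription start sites (TSSs) came from GENCODE vM21 on mm10. They carried 92 transcripts with 86 distinct TSSs. Chromatin came from Oct1 deficient mouse ESCs, deficient in the product of Pou2f1, a paralog of Oct4. The cells were kept undifferentiated with the GSK3b inhibitor CHIR99021 (3 μM), a MEK inhibitor (1 μM) and ascorbic acid, and were fixed with 1% formaldehyde. The study's methods also name LIF and a layer of arrested feeder fibroblasts, which was depleted before the experiments. HBO1 was immunoprecipitated in 2 samples, and 1 input sample had the same genotype, with no wild-type or untreated group. The labels and methods give this genotype, whereas the heading of the study's own supplementary list of peaks names WT ESCs, and the labels were followed. The antibody label of the second ChIP sample reads HBO2, while its title reads HBO1. HBO1 (Kat7) is the histone acetyltransferase of complexes that hold Jade or Brpf scaffold proteins.

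The study provided 1 peak list, and how the ChIP samples were combined in it is not given in the sources used here. Values therefore have no spread between replicates, and no p-value was computed. RNA was not measured, so the cell type could not be checked on marker genes. Of 20 merged Pou2f1 exons, 14 held no input read end, which at this depth does not tell whether an exon is deleted. The input held 31973678 aligned read ends, 48.4% of which repeated a position and strand, and 68.5% had a mapping quality of at least 20. Of the total, 9234011 lay on chr2 and 7896004 on chr9, and no other chromosome held more than 1101760. None of the 10 Polycomb genes is on chr2 or chr9, so these totals do not give the depth or the share of repeats there. Around their TSSs the median was 58.5 read ends per 1 kb, and 48.5 without repeats of a position and strand.

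Polycomb proteins keep developmental genes silent in embryonic stem cells through a pair of chromatin complexes. PRC2 methylates lysine 27 of histone H3 and PRC1 ubiquitinates histone H2A, and each complex can bind the mark left by the other. Kdm2b brings a variant form of PRC1 to CpG islands, which are stretches of unmethylated DNA rich in the dinucleotide CpG, through its CxxC zinc finger.

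Of the 10 genes, 8 had an HBO1 peak within 1 kb of a TSS, with distance taken from the peak edge. They were the PRC2 core genes Ezh2, Eed and Suz12, the PRC2 cofactor gene Jarid2, the PRC1 ubiquitin ligase gene Rnf2, and the variant PRC1 genes Kdm2b, Pcgf1 and Rybp. Ring1, which encodes the other PRC1 ubiquitin ligase, and Pcgf6 had none. Among all protein-coding genes 21.7% had such a peak. That share was 28.5% among genes whose outermost TSS had at least the GC content of the lowest of the 10 (49.3%). It was 33% among those of them with at least 3 distinct TSSs. Both shares rest on lower limits only and are not from matched genes. GC content at the outermost TSS reached 79.6% in the 10 and had a median of 54.8% over all protein-coding genes. With peaks of a −log10 q of at least 10 only, 6 of the 10 genes and 7.97% of all protein-coding genes remained. A TSS lay inside a peak at 6 of the 10 genes and at 10.9% of all protein-coding genes. The outermost TSS was within 1 kb of a peak at 7 of the 10 genes and at 18.7% of all, and the gene that dropped out was Kdm2b.

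**Figure D1:**
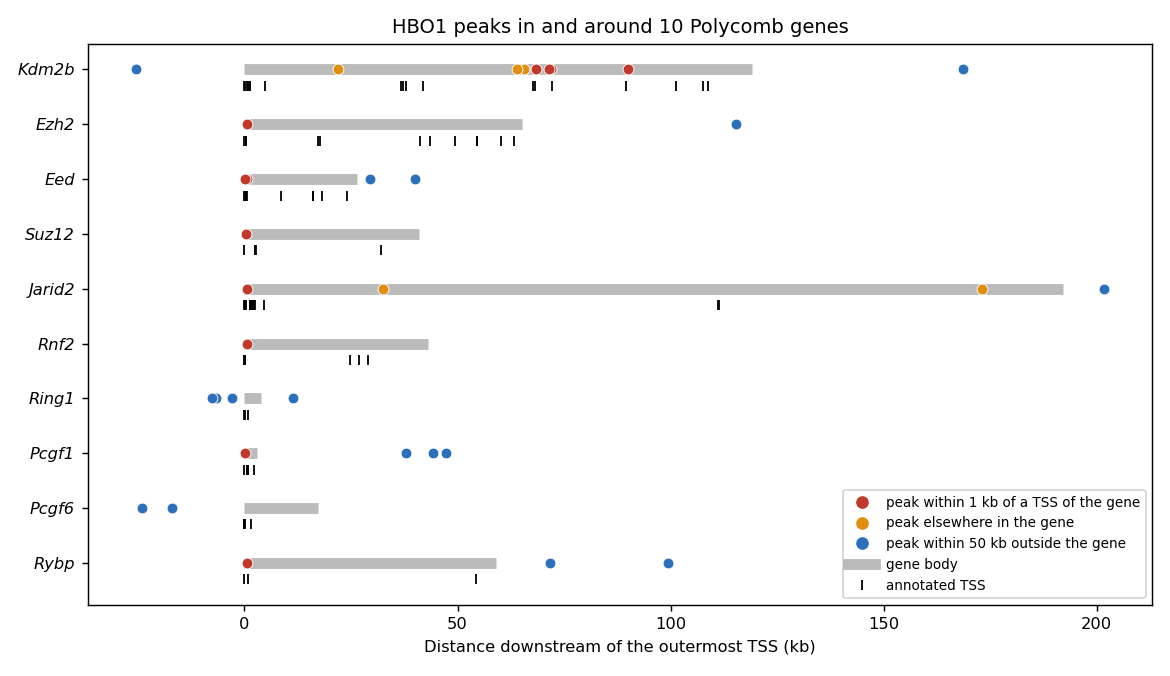
HBO1 peak summits (circles) are drawn by their distance in kb downstream of the outermost TSS of each of the 10 Polycomb genes, with gene bodies as grey bars and annotated TSSs as ticks. Peaks sit at the start of 7 genes, inside Kdm2b far from its start, and only outside Ring1 and Pcgf6.

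The sequences below show the DNA under summits of CpG-rich peaks within 1 kb of TSSs of 6 of the genes, and were chosen because 9 of the 12 such peaks were rich in CpG. Each is 100 bases of GRCm38 (mm10) around the summit on the strand of the gene, outside annotated untranslated regions, with every CpG in capitals.
Kdm2b, chr5:122899812-122899911, minus strand: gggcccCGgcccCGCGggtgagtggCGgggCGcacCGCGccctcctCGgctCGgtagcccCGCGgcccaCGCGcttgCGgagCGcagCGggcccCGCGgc
Ezh2, chr6:47594721-47594820, minus strand: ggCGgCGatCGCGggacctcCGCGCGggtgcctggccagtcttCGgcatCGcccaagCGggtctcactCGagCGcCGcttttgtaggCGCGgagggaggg
Eed, chr7:89980311-89980410, minus strand: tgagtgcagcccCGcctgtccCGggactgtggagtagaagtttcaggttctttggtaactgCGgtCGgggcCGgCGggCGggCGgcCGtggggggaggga
Jarid2, chr13:44730106-44730205, plus strand: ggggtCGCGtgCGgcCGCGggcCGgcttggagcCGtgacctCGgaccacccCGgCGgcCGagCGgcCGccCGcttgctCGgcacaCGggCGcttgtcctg
Rnf2, chr1:151500389-151500488, minus strand: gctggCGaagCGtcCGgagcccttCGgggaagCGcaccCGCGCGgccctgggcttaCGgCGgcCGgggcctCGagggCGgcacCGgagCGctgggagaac
Rybp, chr6:100286789-100286888, minus strand: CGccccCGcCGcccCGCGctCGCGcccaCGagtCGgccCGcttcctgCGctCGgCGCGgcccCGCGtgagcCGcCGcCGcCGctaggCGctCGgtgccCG
The Kdm2b stretch held 18 CpG at 86% GC and the Rybp stretch 23 CpG, also at 86% GC. Ezh2 and Rnf2 held 15 CpG each, Jarid2 17 and Eed 9. The other 3 peaks near TSSs, all in Kdm2b, lay in DNA poorer in CpG than the 9 CpG-rich peaks. So did the peaks in the gene bodies over 1 kb from a TSS of the gene. The first stretch of the next set is from a Kdm2b peak that covers a TSS, and the others are from peaks away from TSSs in Kdm2b and Jarid2, again with CpG in capitals.
Kdm2b, chr5:122917867-122917966, minus strand: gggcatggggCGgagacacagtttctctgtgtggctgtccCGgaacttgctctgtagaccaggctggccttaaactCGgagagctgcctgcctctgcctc
Kdm2b, chr5:122924227-122924326, minus strand: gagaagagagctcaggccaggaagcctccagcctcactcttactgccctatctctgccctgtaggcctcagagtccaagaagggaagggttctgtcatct
Kdm2b, chr5:122925826-122925925, minus strand: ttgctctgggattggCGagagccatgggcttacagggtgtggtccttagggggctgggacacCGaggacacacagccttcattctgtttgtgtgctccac
Jarid2, chr13:44761947-44762046, plus strand: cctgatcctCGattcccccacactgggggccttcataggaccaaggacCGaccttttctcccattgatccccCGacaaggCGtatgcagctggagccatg
In this order they held 3, 0, 2 and 4 CpG. Interspersed repeats were not annotated, so whether any printed stretch lies in a repeat was not checked.

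The 8 genes had 12 peaks within 1 kb of their TSSs. These had a median fold enrichment, the ratio of ChIP signal to local background computed by the authors, of 2.90 (range 1.75 to 9.71) and a median −log10 q of 12.02 (range 3.55 to 23.6). All 5625 peaks within 1 kb of a TSS had medians of 2.69 and 7.84. In the 200 bases around the summit the CpG observed over expected ratio had a median of 0.993 for the 12 peaks (range 0.214 to 1.19) and 0.849 for all peaks near TSSs. It was 0.927 to 1.19 for 9 of them, and 0.214, 0.238 and 0.426 for the Kdm2b peaks at chr5:122918322-122918859, chr5:122917705-122918041 and chr5:122921183-122921794. The summit lay downstream of the nearest TSS in 9 of the 12, beside 72.1% of all peaks near TSSs. The 5 peaks elsewhere in the genes had a median fold enrichment of 5.66, a median −log10 q of 7.86 and a median CpG ratio of 0.198 (range 0.128 to 0.480), and those 3 Kdm2b peaks lay within this range. The 8198 peaks over 1 kb from any TSS had medians of 4.68, 6.45 and 0.336. No difference between these medians was tested.

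The PRC2 core genes each had a peak just downstream of the start. Ezh2 encodes the H3 lysine 27 methyltransferase and lies on the minus strand at chr6:47530139-47595341. Its only peak in the gene, at chr6:47594178-47594979, had a fold enrichment of 2.61 at a −log10 q of 10.5. The summit was 259 bp downstream of the TSS shared by Ezh2-201, Ezh2-203 and Ezh2-204, and 3 of 12 distinct TSSs had the peak within 1 kb. The other 9 TSSs, 16168 bp or more from a peak, had 0 to 6 input read ends in the 1 kb around them.

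Eed encodes the subunit that binds trimethylated H3 lysine 27 and stimulates Ezh2. It lies on the minus strand at chr7:89954654-89980983 and had 2 peaks at its start. The peak at chr7:89980106-89980516 had a fold enrichment of 3.21 at a −log10 q of 15.4, and its summit was 100 bp downstream of the TSS of Eed-209. The peak at chr7:89980695-89980988, with 2.31 and 6.55, covered the outermost Eed TSS and also a TSS of E230029C05Rik, and the other peak was also within 1 kb of that TSS, so neither can be given to Eed alone. All 5 Eed TSSs within 522 bp of the outermost one had a peak within 1 kb, and the 5 internal ones had none.

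Suz12 encodes the scaffold subunit that PRC2 needs for its assembly. It lies on the plus strand at chr11:79993106-80034123 and had 1 peak, chr11:79993191-79993875, with a fold enrichment of 2.59 at a −log10 q of 14.4. The summit was 250 bp downstream of the TSS, in a coding exon. Only that TSS of 5 had a peak within 1 kb, and the 4 internal TSSs were 1711 to 31320 bp away, in DNA of 32.2 to 37.9% GC with 1 to 3 input read ends per 1 kb.

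Jarid2 encodes a PRC2 cofactor that binds DNA and has lost demethylase activity. It lies on the plus strand at chr13:44729474-44921643. Its start had the weakest of the 12 peaks, chr13:44729763-44730248, with a fold enrichment of 1.75 at a −log10 q of 3.55. This peak had the highest input of the 12, 149 read ends per 1 kb at the summit. It lay within 1 kb of 7 of 16 distinct TSSs, spread over 1385 bp. The TSS inside it was that of Jarid2-204, whose coding sequence is annotated without its end. The peak ended 526 and 575 bp upstream of the TSSs of Jarid2-210 and Jarid2-201, of 1234 codons each. Jarid2 dropped out when peaks needed a −log10 q of at least 5 or a fold enrichment of at least 2. A peak at chr13:44761856-44762132 in an intron had a fold enrichment of 5.29 at a −log10 q of 5.43 with 4 input read ends. Another at chr13:44902424-44902777, in a coding exon, had 3.06 and 6.69 with 40 input read ends.

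The PRC1 ubiquitin ligase genes differed in whether a peak was present. Rnf2 (Ring1b) lies on the minus strand at chr1:151458004-151500955. Its peak at chr1:151500063-151500796 had a fold enrichment of 2.80 at a −log10 q of 13.5, with the summit 355 bp downstream of the TSS of Rnf2-205, which lay inside it. The 4 Rnf2 TSSs at the start had the peak within 1 kb, and 3 internal TSSs were 23901 to 28032 bp from a peak.

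Ring1 lies on the minus strand at chr17:34020792-34024680, had 3 TSSs and no peak in the gene. Its outermost TSS was 2772 bp from the nearest peak, chr17:34027452-34028006, which covered a TSS of H2-Ke6 and had a fold enrichment of 2.74 at a −log10 q of 10.99. Further peaks covered TSSs of Slc39a7, at 2.61 and 7.64, and Rxrb, at 2.15 and 5.32, and another peak in the other direction, at 3.85 and 4.50, was 3231 bp from a TSS of CR974462.5. The outermost Ring1 TSS was at 71.3% GC and had 119 input read ends (95% Poisson interval 98.6 to 142, counting error only), against a median of 110 for TSSs of its GC class. Why no peak was listed there was not tested.

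Variant PRC1 genes other than Kdm2b gave a mixed picture. Pcgf1, whose protein joins Kdm2b in a variant PRC1, spans 2987 bp on the plus strand at chr6:83077869-83080855. The peak at chr6:83077574-83078022 had a fold enrichment of 2.21 at a −log10 q of 5.71, with its summit 82 bp downstream of the outermost TSS in the untranslated region, and 6 of 7 TSSs were within 1 kb of it. The outermost TSS is that of Pcgf1-205, whose coding sequence is annotated without its end. The peak ended 324 and 368 bp upstream of the TSSs of Pcgf1-202 and Pcgf1-201, of 259 and 247 codons. Pcgf1 dropped out at a −log10 q of at least 10. Rybp encodes a subunit of variant PRC1 that binds ubiquitinated H2A. It lies on the minus strand at chr6:100228565-100287485, and its peak at chr6:100286596-100287388 had a fold enrichment of 3.08 at a −log10 q of 16.1. The summit region of Rybp was the richest in CpG of the 12, with 43 in 200 bases and an observed over expected ratio of 1.19.

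Pcgf6 defines a variant PRC1 that acts with Mga and Max. It lies on the minus strand at chr19:47033617-47050906 and had no peak in the gene. The nearest peak, chr19:47067743-47068272, was 16837 bp from the outermost TSS and covered a TSS of Taf5, with a fold enrichment of 3.02 at a −log10 q of 13.5. The outermost Pcgf6 TSS had 77 input read ends (95% Poisson interval 60.8 to 96.2) at 58.5% GC, against a GC class median of 69.

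Kdm2b had the most peaks of the 10 genes, and none of them lay at its upstream promoter. It lies on the minus strand at chr5:122870665-122989823, over 119159 bp, with 20 transcripts and 19 distinct TSSs. A gene body with at least as many peaks as the 7 of Kdm2b was found for 57 protein-coding genes (0.26%), and for 9 of 1015 genes of 100 to 150 kb (0.887%), where the median was 1 and the highest count 13. The 7 upstream TSSs, spread over 1290 bp, start the transcripts with the longest coding sequences, Kdm2b-202 to Kdm2b-205, of 1254 to 1309 codons. They were 20096 to 21386 bp from a peak, and their 1-kb windows held 41 to 82 input read ends. The median was 6 per 1 kb along the gene, but 31 or 44 for TSSs of their GC classes.

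The Kdm2b peaks were crowded further downstream. Of the 7 peaks, 6 lay within 26477 bp, from the peak at chr5:122925778-122926060 to the one at chr5:122899584-122900197. The last of these was next to an internal start, the TSS of Kdm2b-201 at position 122900355. It had a fold enrichment of 3.01 at a −log10 q of 19.98, and its summit was 493 bp downstream of that TSS, in an intron. Kdm2b-201 codes for 776 codons, and 2274 of its 2328 coding bases lie in coding exons of Kdm2b-202. Of the 23 coding exons of Kdm2b-202, 12 are upstream of the Kdm2b-201 TSS. A short form of Kdm2b that lacks the JmjC demethylase domain and keeps the CxxC finger is known. The 1 kb around this TSS was at 75.0% GC, with 118 input read ends (95% Poisson interval 97.7 to 141) against a GC class median of 114.

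The internal start also held an exact MORE, the more palindromic octamer-related element to which Oct4 binds as a dimer, searched as the letters ATGCATATGCAT, which read the same on both strands. The 150 bases upstream of the Kdm2b-201 TSS are printed from GRCm38 with the MORE in capitals.
Kdm2b, chr5:122900356-122900505, minus strand: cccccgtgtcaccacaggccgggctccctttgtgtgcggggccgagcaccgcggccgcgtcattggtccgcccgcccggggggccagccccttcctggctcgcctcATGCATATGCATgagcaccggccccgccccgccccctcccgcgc
The MORE at chr5:122900388-122900399 was 33 bp upstream of the TSS of Kdm2b-201, 191 bp from the edge of the peak and 526 bp from its summit. In the upstream transcripts it lies in an intron. By its centre it was 197 bp from the peak, close to the limit of 200 bp used here for nearness. Of 13823 peaks, 28 (0.203%) had a MORE with at most 1 mismatch within that limit, and 4 (0.0289%) had an exact one. The numbered chromosomes, X and Y held 1624 exact MOREs, and 3 of them were centred within 100 bp of a TSS of a protein-coding gene. Among 32851 RefSeq promoter windows on GRCm38.p6, each from 250 bases upstream to 50 downstream of a start, 3 (0.00913%) held an exact MORE, and 2 of these were overlapping Kdm2b windows at this internal start. The third belonged to Gm34097. Kdm2b is on the study's list of MORE genes, under the synonym Fbxl10, so a MORE in the gene is not independent of that list, and Oct4 binding was not analysed here.

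The strongest Kdm2b peak was at chr5:122921183-122921794, with a fold enrichment of 9.71, rank 98 of all peaks, and a −log10 q of 23.6, rank 549. It covered the TSS of Kdm2b-220, a transcript with a retained intron, and was 313 bp from that of Kdm2b-208, a noncoding transcript. The peak at chr5:122917705-122918041, which covered the TSS of the noncoding Kdm2b-219, had 5.60 and 8.31, and the peak next to it at chr5:122918322-122918859 had 3.71 and 3.93. Further from any TSS were the peaks at chr5:122924048-122924474, with 6.29 and 7.86, chr5:122925778-122926060, with 6.78 and 8.78, and chr5:122967670-122968437, with 5.66 and 8.42. These 6 peaks had 3 to 13 input read ends per 1 kb at their summits. The peak at Kdm2b-201 had 108, and it was the only Kdm2b peak next to the start of a protein-coding transcript.

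**Figure D2:**
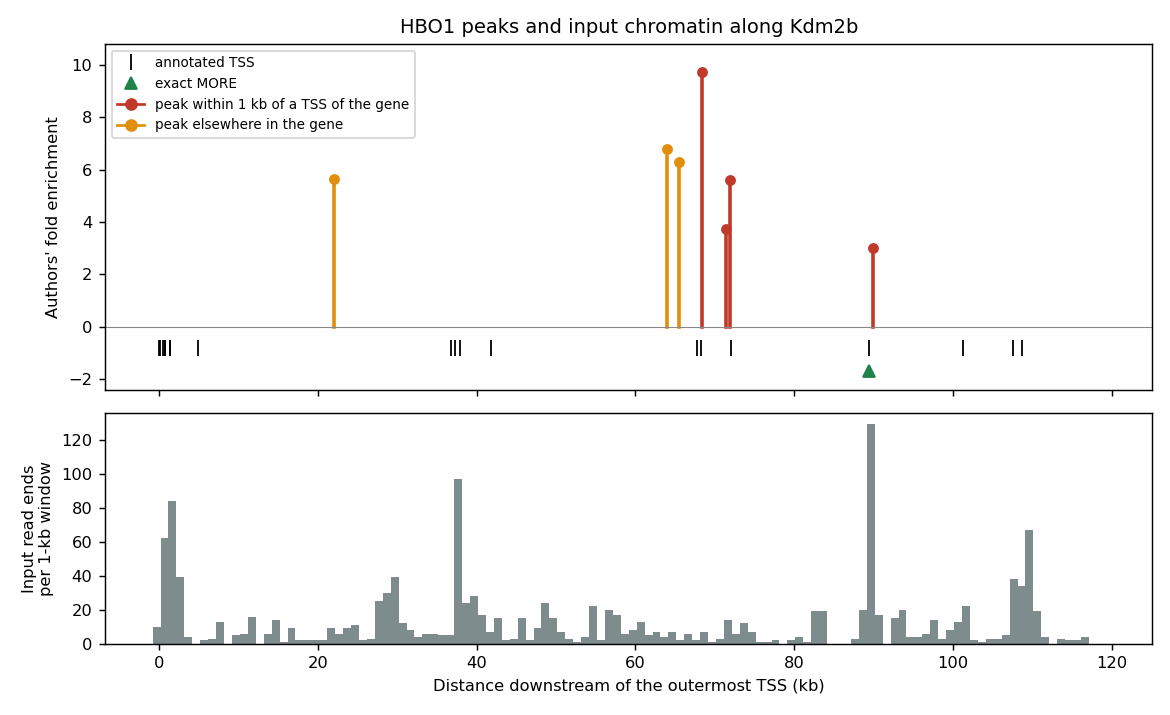
The upper panel gives the authors' fold enrichment of the 7 HBO1 peaks in Kdm2b against distance in kb downstream of the outermost TSS, with annotated TSSs as ticks and the exact MORE as a triangle, and the lower panel gives input read ends in consecutive 1-kb windows. The peak at the internal start, with a fold enrichment of 3.01, stands where the input is highest, and the peaks with fold enrichments of 3.71 to 9.71 stand where it is low.

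The 17 peaks in the bodies of the 8 genes followed the whole peak list in how fold enrichment, a ratio over local background, went with input. The 7 peaks with at most 20 input read ends around the summit (3 to 13) had fold enrichments of 3.71 to 9.71 with a median of 5.66, and the median of all 7116 such peaks was 5.14. The 10 peaks with more (40 to 149) had fold enrichments of 1.75 to 3.21 with a median of 2.70, and the median of all 6707 such peaks was 2.56. Of the 7 peaks of low input, 6 were in Kdm2b and the other in Jarid2. Their median therefore mostly describes Kdm2b and not the 8 genes. The −log10 q was 3.93 to 8.78 for 6 of the 7 peaks of low input and 23.6 for the Kdm2b peak at chr5:122921183-122921794. It was 3.55 to 19.98 for the 10 others, 6 of them above 10. The medians over the whole list were 6.25 at low and 7.77 at higher input. The limit of 20 was set after the values were seen, and the part of the low input in the high fold enrichments was not tested. A peak overlapped the gene body at 8 of the 10 genes and at 28.2% of all protein-coding genes.

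**Figure D3:**
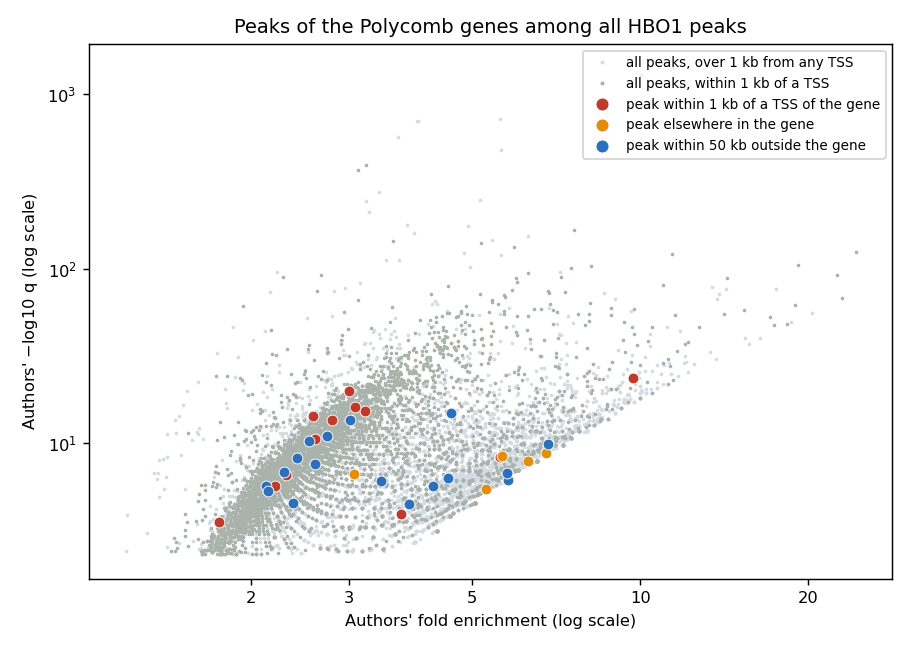
Each HBO1 peak is a point by the authors' fold enrichment and −log10 q, both on log axes, with the 34 peaks in or within 50 kb of the Polycomb genes in color. Of the peaks near their TSSs, 9 have fold enrichments of 1.75 to 3.21, with the Jarid2 peak near the low edge of all peaks. The 3 other Kdm2b peaks near TSSs lie further right.

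Around the 86 TSSs the median input was 58.5 read ends per 1 kb, against 37 around all 93513 TSSs of protein-coding genes. At the outermost TSSs the medians were 95.5 and 47. A peak lay within 1 kb of 32 of the 86 TSSs (37.2%) and of 17.5% of all protein-coding gene TSSs. TSSs of 1 gene can share a peak and have overlapping windows, so these counts are not of independent sites. The peak at the Jarid2 start gave 7 of the 32, and the Pcgf1 peak gave 6. The 32 TSSs with a peak had a median of 99 read ends and a median GC content of 65.1%, and the 54 without had 17.5 and 48.0%. Over all protein-coding genes the medians were 81 with a peak and 26 without. Read against TSSs of the same GC class, 70 of the 86 lay between the 10th and the 90th percentile, 13 above and 3 below. Those above were 8 of the 16 Jarid2 TSSs, 2 internal TSSs of Eed, 1 of Rnf2 and the Kdm2b TSSs at 122988533 and 122988536, with 82 read ends each against a class median of 44. Whether more ChIP reads would have given peaks at the TSSs of low input was not tested.

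**Figure D4:**
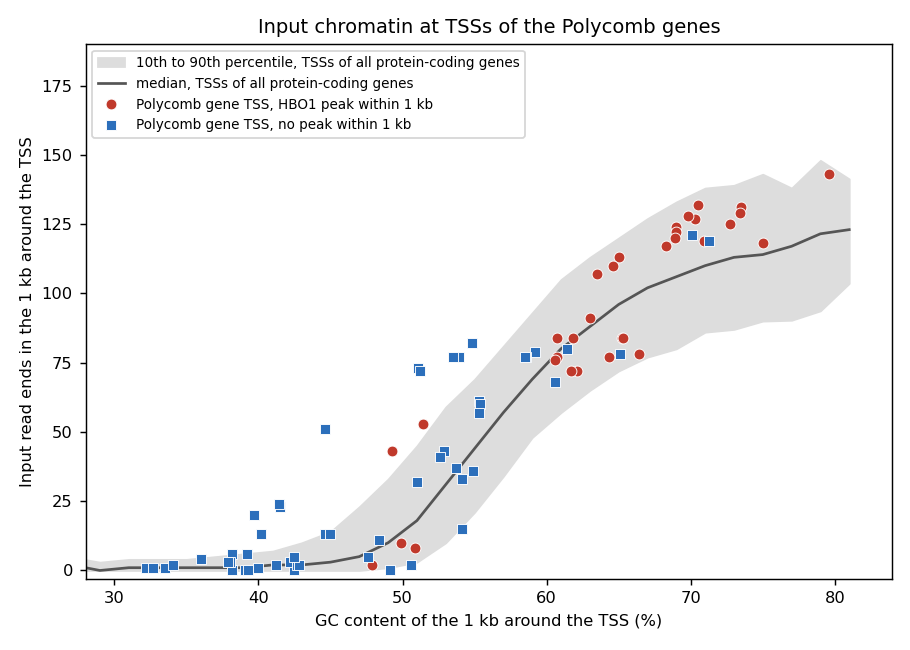
Input read ends in the 1 kb around each of the 86 TSSs are plotted against its GC content, for TSSs with (red) and without (blue) an HBO1 peak within 1 kb, over the median and the 10th to 90th percentile of all protein-coding gene TSSs in classes of 2 percentage points. Most TSSs follow the line, and the Ring1 TSSs, at 119 and 121 read ends, stand without a peak among TSSs that have one.

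Outside the genes, 17 peaks lay within 50 kb. All 10 genes had a peak in the gene or within this distance, as did 62% of protein-coding genes. Of the 17, 10 were within 1 kb of a TSS of another gene, among them Anapc5 and Orai1 near Kdm2b, Hikeshi near Eed, and Mogs, Gm44287 and Ino80b near Pcgf1. The other 7 were over 1 kb from any TSS. One of these was 2929 bp beyond the end of Eed, with a fold enrichment of 6.83 at a −log10 q of 9.86, and another was 9374 bp beyond the end of Jarid2, with 4.26 and 5.70. Near Ezh2 a peak with 5.79 and 6.13 was 49913 bp from the gene and had 0 input read ends around its summit. Rybp had a pair of such peaks, with 5.77 and 6.75 at 40204 bp and with 3.42 and 6.09 at 12604 bp from the gene.

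Octamer and MORE matches were also counted in the other genes. Besides Kdm2b, Pcgf6 held an exact MORE, chr19:47037915-47037926, in an intron 29822 bp from the nearest peak. Ezh2 and Jarid2 each held a match with 1 mismatch, 52939 and 8350 bp from a peak, and the other 6 genes held none. The exact octamer ATGCAAAT, on either strand, was within 200 bp of 1 of the 34 peaks (2.94%), the flank peak at Orai1, which is near the share of all 13823 peaks, 325 (2.35%). It was present in 1.74% of the RefSeq promoter windows. Jarid2 held 11 octamers in its body, none of them within 200 bp of a peak.

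A further list of 48 genes was broader than Polycomb subunits and included Kdm6a, Kdm6b, Cbx1, Cbx3, Hdac1, Hdac2 and Wdr5. Of the 48 genes, 33 (68.8%) had a peak within 1 kb of a TSS. That made 41 of 58 with the 10 genes above, beside 21.7% of all protein-coding genes. The share is that of the whole list and not of Polycomb genes alone. The GC content and TSS number of the 48 genes were not matched to a background. With peaks of a −log10 q of at least 10 only, 9 of the 48 remained, beside 7.97% of all protein-coding genes. A TSS lay inside a peak at 20 of the 48, beside 10.9% of all. The highest fold enrichments were those of Usp7, with 7.77, and Cbx7, with 7.59, then Mga with 6.43, Kdm6a with 4.65 and Asxl1 with 4.51. The 1 kb around the summits of the first 3 held 3, 0 and 3 input read ends, against 38 for Kdm6a and 113 for Asxl1. Mga and Asxl1 are on chr2, which held 9234011 input read ends, and what this does to their values was not tested. The order differed by −log10 q, which was 11.7 for Usp7, 15.6 for Cbx7, 9.76 for Mga, 14.7 for Kdm6a and 40.8 for Asxl1, with 30.7 for Fbrsl1. Usp7 encodes a deubiquitinase found with variant PRC1, Cbx7 the chromobox subunit of canonical PRC1 in ESCs, and Mga the DNA-binding partner of Max in the Pcgf6 complex. Over the 33 genes, each taken by its peak of highest fold enrichment within 1 kb of a TSS, the median was 2.49 and the range 1.76 to 7.77. The others with a peak were Mtf2, Fbrsl1, Rbbp7, Epop, L3mbtl2, Bmi1, Hdac1, Aebp2, Auts2, Phc2, Kdm2a, Lcor, Skp1a, Fbrs, Asxl2, Wdr5, Phc1, Pcgf2, Scmh1, Csnk2b, Max, Cbx3, Yaf2, Csnk2a1, Cbx1, Rbbp4, Pcgf5 and Phf1. The 15 without one included Ezh1, the paralog of Ezh2, the chromobox genes Cbx2, Cbx6 and Cbx8, the Kdm2b partner gene Bcor, and E2f6, which acts with Pcgf6. Their nearest peaks were 1771 bp (Kdm6b) to 477644 bp (Scml2) from a TSS.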

How the data were processed

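HBO1 ChIP-seq and input chromatin came from Oct1 deficient ESCs. Per the labels and the study's methods, the authors used Novoalign 4.03.01 for alignment to mm10 and MACS2 for peak calling, and the lowest −log10 q in the list was 2.30. Each peak of the deposited list carries the authors' fold enrichment, a ratio over local background, the −log10 q of the caller, a summit and a score. The deposited input lists each aligned read end with its mapping quality score, without normalization. ChIP reads were not analysed here.

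From these, distances of peaks to each GENCODE vM21 TSS were computed with Python 3.11.15, numpy 2.4.6 and pandas 2.3.3, from the peak edge and as 0 where the TSS lay in the peak. The distance search was tested on simulated data, with 4000 of 4000 distances recovered. Each input read end was assigned by its midpoint to windows of 1 kb, and counts were set beside TSSs of the same GC class of 2 percentage points. Sequences were read from GRCm38 with pysam 0.24.0, motifs were searched on both strands, the MORE with at most 1 mismatch and the octamer with none, and a motif was near a peak when its centre was within 200 bp. RefSeq promoter windows were held for 8 of the 10 genes. Exact Poisson intervals were computed at 95% with scipy 1.17.1 and figures with matplotlib 3.10.9.

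All 10 genes were named with each peak in the gene or within 1 kb of a TSS. Also named were the genes with a TSS within 1 kb of a flank peak, and CR974462.5. From the further list, genes with a peak were named, the 5 with the highest fold enrichment in full. Genes and lists were chosen with earlier results of these data known. The exact MORE counts over the genome and the promoter windows were added after the data were seen. So were the shares among genes above a lower limit of GC content or TSS number, and among genes of 100 to 150 kb. With 1 peak list and 1 input no test between samples was possible. Alternatives were stricter peaks, other distances, flanks and TSS sets, and filters on input reads.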

Additional observations from a re-analysis of the deposited data

How the results depend on the processing

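Of 44 alternatives, 36 left a count or median within its limits (1.5 times for counts) and 8 did not. With peaks of a −log10 q of at least 10 only, protein-coding genes with a peak within 1 kb of a TSS went from 4764 to 1748. Distinct TSSs of the 10 Polycomb genes went from 32 to 18, and genes of the further list from 33 to 9. Peaks in the gene bodies went from 17 to 7 and peaks within 50 kb from 34 to 11. These moves follow from the smaller peak list. With TSSs of protein-coding transcripts only, 21 TSSs had a peak. They come from a smaller set than the 86 TSSs, so 21 in place of 32 is not a fall in the share. A flank of 100 kb held 69 peaks, and at outermost TSSs only the median input was 95.5 in place of 58.5. The count of 8 genes with a peak fell to 7 when a −log10 q of at least 5 was required or a fold enrichment of at least 2 (without Jarid2), 6 at a −log10 q of at least 10 (without Jarid2 and Pcgf1), 7 at outermost TSSs only (without Kdm2b), and 8 under the other 4 alternatives. No paired analysis was possible because there was 1 peak list for both ChIP samples. The depth of the ChIP samples was not analysed here, so a gene without a peak is not shown to lack HBO1.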

Other observations

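The 4 exact MOREs centred within 200 bp of an HBO1 peak, counted after the data were seen, were those near Kdm2b, Saa2, Gnao1 and Zmiz2 by the nearest TSS of a protein-coding gene. The MORE centre was 39 bp from a TSS at Kdm2b, 18 bp at Zmiz2, 6945 bp at Saa2 and 5909 bp at Gnao1. It lay inside the peak at Gnao1, and 68 bp from the peak at Saa2, 164 bp at Zmiz2 and 197 bp at Kdm2b. Of the 1624 exact MOREs these were 0.246%. The share of the genome within 200 bp of a peak was not computed, so this share is not shown to exceed it. Of the study's example MORE genes Polr2a, Zmiz2 and Rras2, this search of exact letters gave only Zmiz2.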
